A study of Homo sapiens with 6 samples.

Results

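NF-kappaB subunits and their inhibitors were examined in HT29 cells exposed to a cocoa extract. The set comprised 5 subunit genes (NFKB1, NFKB2, REL, RELA and RELB) and 5 inhibitor genes or modulators (NFKBIA, NFKBIB, NFKBIE, TNFAIP3 and BCL3). Probe sets were kept when the array annotation gave them exactly 1 gene symbol and that symbol was in the set. This left 9 of the 10 genes, with 20 of the 54613 probe sets tested, among 19775 genes in all. BCL3, an IκB-like nuclear cofactor, has 2 probe sets that carry its symbol together with MIR8085, so that it was not analysed here.

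NF-kappaB is a family of dimeric transcription factors that are held in the cytoplasm by IκB proteins. Signals from cytokine receptors or microbial sensors activate the IκB kinase, which marks IκB for degradation and releases the dimers to the nucleus, where they switch on genes of inflammation, survival and defence. In the intestinal epithelium the pathway is known for its part in barrier defence and in inflammation. NFKB1, NFKB2, REL, RELB, NFKBIA, NFKBIE and TNFAIP3 are themselves known targets of the pathway, which forms feedback loops.

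Of the 6 cultures of HT29 cells, an established line from a human colorectal adenocarcinoma, 3 received 500 µg of polyphenolic cocoa extract for 24 h and 3 were controls, and each was read on its own Affymetrix array (3 per group). For both, 300000 cells were plated per 100 mm dish, in F12 medium that held 7% serum. The control samples are titled untreated, while the protocol states saline. The comparison asks which of these transcripts differed after a day of exposure, in 1 cell line and at 1 dose, and nothing in the labels says whether the cultures of a group came from separate days, so that p-values here reflect the spread among these dishes, which may be technical.

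In the deposited table every probe set has been shifted so that its median over the 6 arrays is 0, on the log2 scale. Such values show how arrays differ and hold no levels, so that the presence of a transcript, or its level against another gene, cannot be read from them. Probe sets of 1 gene were averaged. Differences are cocoa minus control on the log2 scale with the SE of limma, a linear model fitted to all genes, and a gene was called changed at a Benjamini-Hochberg adjusted p under 0.05 over all 19775 genes. Because RNA was taken from whole cultures, fewer cells that carry a transcript and less of it per cell cannot be told apart.

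Of the 9 measured genes, NFKB1 fell and the other 8 did not pass the threshold. The share called, 11.1%, stood beside 13.5% of all genes tested (6.12% lower and 7.36% higher with cocoa), a share near that background. Its median log2 difference was −0.11, against −0.012 over all genes. The cocoa arrays did not overlap the control arrays in 3 of the 9 genes (NFKB1, NFKB2 and NFKBIB, all lower with cocoa), against 32.5% of all genes in either direction and 17% with cocoa below control. NFKB1 was also the single member that changed at least 1.5-fold at that threshold, as 2.26% of all genes did. Its fold of 1.503 lay only just past that limit, which was applied to the reported fit alone. Under other settings its log2 difference ran from −0.64 to −0.55.

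**Figure D1:**
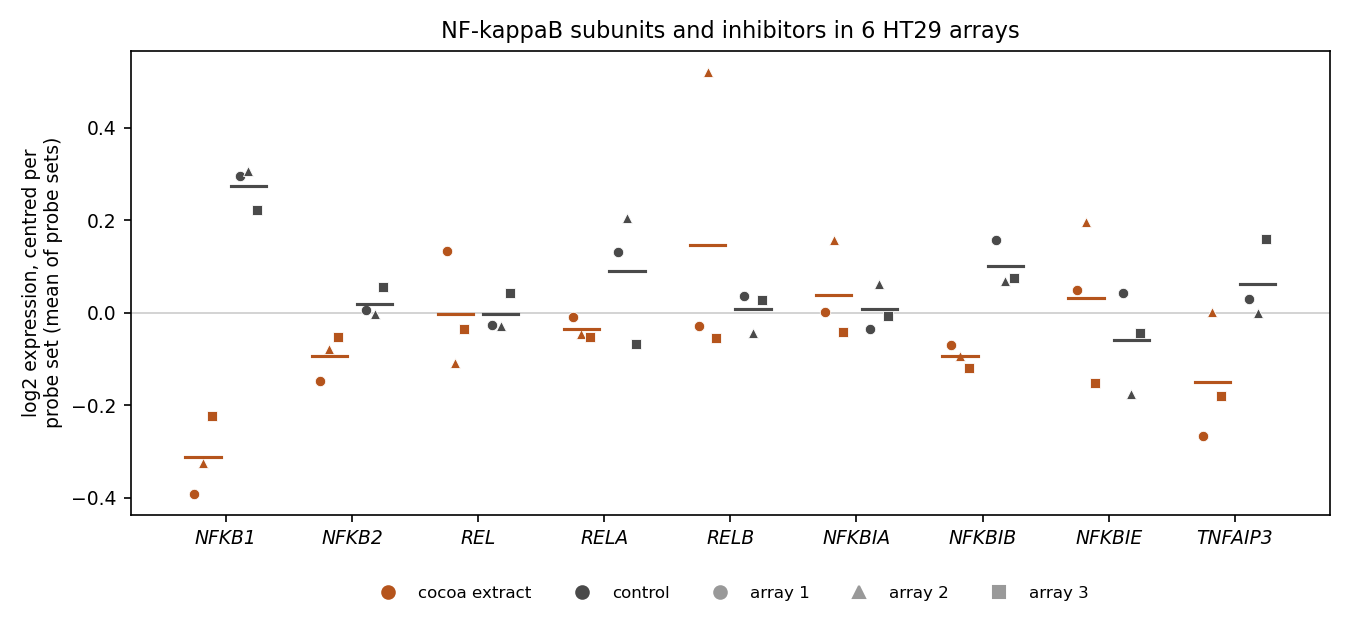
Each point is the centred log2 value of 1 of the 9 measured members in 1 array, with cocoa arrays in brown left of control arrays in dark grey, a shape for each replicate number and a bar at the mean of 3. NFKB1 ranges over −0.39 to −0.22 with cocoa, against 0.22 to 0.31 in controls, while most other genes mix, and RELB is high in cocoa array 2 alone.

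NFKB1 encodes a precursor that is processed to a DNA-binding subunit without an activation domain of its own, and the unprocessed precursor acts as an inhibitor. Its centred log2 values were −0.39, −0.33 and −0.22 in the cocoa arrays, against 0.30, 0.31 and 0.22 in the control arrays. All 3 cocoa arrays thus lay below all 3 controls, and the spread within a group (SD 0.085 in cocoa and 0.046 in controls) was small beside the gap. The log2 difference was −0.59 (SE 0.069, 95% interval −0.74 to −0.43, n = 3 arrays per group, limma adjusted p = 0.000929), a 1.5-fold decrease, and 0.41% of all genes had a difference as low or lower. The value rests on 1 probe set, 209239_at, which also passed among all probe sets (adjusted p = 0.00422, where 7.98% of probe sets were called). NFKB1 kept its call in each of the 6 fits without 1 array (−0.63 to −0.55, adjusted p 0.00228 to 0.00775).

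NFKB2, whose precursor serves the non-canonical branch, had values of −0.15, −0.079 and −0.053 in the cocoa arrays, against 0.0063, −0.0029 and 0.056 in the controls. The groups did not overlap, but the difference was small (−0.11, SE 0.063, 95% interval −0.25 to 0.028, limma adjusted p = 0.295). Its 3 probe sets disagreed. Probe set 207535_s_at read −0.32, −0.38 and −0.03 with cocoa, against 0.03, 0.15 and 0.054 in controls (difference −0.32, adjusted p over probe sets 0.106), while 209636_at and 211524_at differed by −0.061 and 0.041. Without cocoa array 3 the first of these passed (−0.43, limma adjusted p = 0.0398).

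RELA, the main activating partner of the canonical dimer, had values of −0.0085, −0.047 and −0.052 in the cocoa arrays, against 0.13, 0.20 and −0.067 in the controls. Control array 3 lay below every cocoa array, so that the groups overlapped, and the difference of −0.13 (SE 0.080, 95% interval −0.31 to 0.055) did not pass (limma adjusted p = 0.372). Its 2 probe sets differed by −0.0095 (201783_s_at) and −0.24 (209878_s_at).

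REL, a subunit best known from lymphocytes, read 0.13, −0.11 and −0.035 with cocoa, against −0.026, −0.029 and 0.043 in controls. Its difference was 0.00054 (SE 0.077, 95% interval −0.17 to 0.17, limma adjusted p = 0.998), and its 5 probe sets ran from −0.19 to 0.11 with 2 below and 3 above 0. The widest spread was in 239486_at, which read 0.21, −0.58 and −0.13 in the cocoa arrays, against 0.07, 0.032 and −0.032 in the controls.

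RELB, the partner of processed NFKB2 in the non-canonical branch, read −0.029, 0.52 and −0.055 in the cocoa arrays, against 0.037, −0.043 and 0.029 in the controls. Cocoa array 2 alone was high, while cocoa array 1 lay among the controls and cocoa array 3 just below them. The difference was 0.14 (SE 0.14, 95% interval −0.17 to 0.45, limma adjusted p = 0.597), and it was −0.0496 without cocoa array 2. That array also had the highest signal of the control probe sets for 18S ribosomal RNA. It read 3.31 there. The remaining cocoa arrays read −0.51 (array 1) and 1.40 (array 3), and controls spanned −1.12 to 0.51. With that signal as a covariate RELB differed by −0.063, and NFKB1 differed by −0.62 (limma adjusted p = 0.00682), about as much as without it.

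Among the inhibitors none of the 4 measured genes passed the threshold in limma, 2 of them with an unadjusted p under 0.05, as 27.1% of all genes had. NFKBIA encodes IκBα, the inhibitor that is resynthesised fastest after activation and whose transcript is a common readout of the pathway. It read 0.00076, 0.16 and −0.041 in the cocoa arrays, against −0.035, 0.063 and −0.0060 in the controls. The groups overlapped, and the difference was 0.032 (SE 0.074, limma adjusted p = 0.844). Its 95% interval, −0.13 to 0.20, is not adjusted for the number of genes, and its 2 probe sets differed by 0.13 (201502_s_at) and −0.061 (231699_at).

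NFKBIB, the slower IκBβ, read −0.069, −0.093 and −0.12 in the cocoa arrays, against 0.16, 0.069 and 0.076 in the controls. All cocoa arrays lay below all controls, and each of its 3 probe sets had a negative difference, −0.26 to −0.15. The gene's difference of −0.19 (SE 0.062, 95% interval −0.34 to −0.054) had an unadjusted p of 0.0119 in limma across all genes, and an adjusted p of 0.0725 that missed the threshold. Probe sets 214062_x_at and 214448_x_at carry the suffix for probes that may match other transcripts, and the third, 228388_at, differed by −0.15.

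TNFAIP3, a ubiquitin-editing enzyme that ends signalling to the IκB kinase, read −0.27, 0.0010 and −0.18 in the cocoa arrays, against 0.029, −0.0010 and 0.16 in the controls. Cocoa array 2 lay among the controls and the other cocoa arrays lay below them. The difference was −0.21 (SE 0.085, 95% interval −0.40 to −0.020). In limma its unadjusted p was 0.0339 and its adjusted p 0.142. It was −0.29 without cocoa array 2 (limma adjusted p = 0.0623). In a fit with the 5′ minus 3′ signal of the actin and GAPDH control probe sets as a covariate, it was −0.32 and passed (limma adjusted p = 0.0483). That signal was −0.26 in cocoa array 2 and −0.052 to 0.033 in the other 5 arrays, and its part in the result was not tested.

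NFKBIE, which encodes IκBε, read 0.048, 0.20 and −0.15 with cocoa, against 0.043, −0.18 and −0.043 in controls. The groups overlapped, with a difference of 0.089 (SE 0.098, 95% interval −0.13 to 0.31, limma adjusted p = 0.638). Each group of 3 arrays allows no exact two-sided permutation p under 0.1, which NFKB1, NFKB2 and NFKBIB reached.

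**Figure D2:**
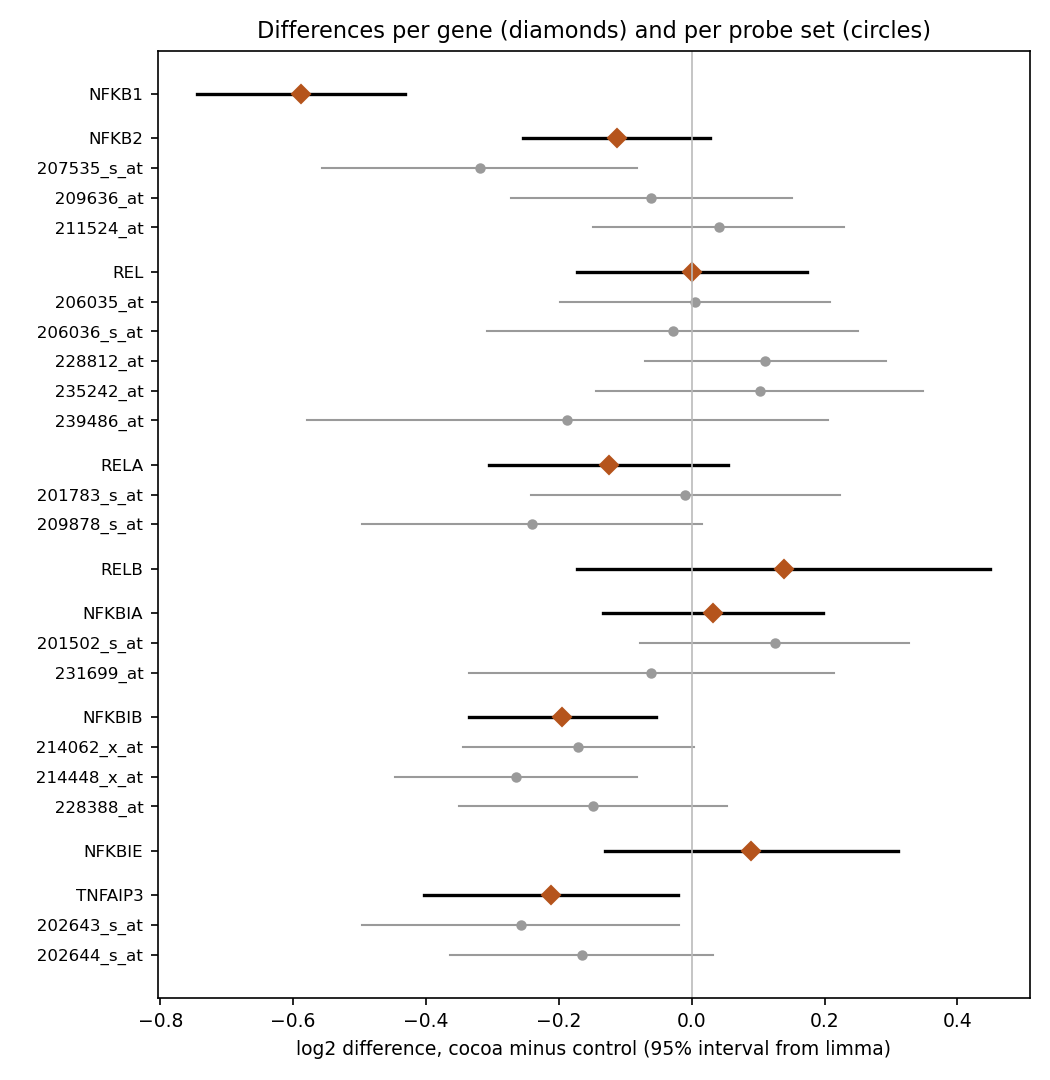
Log2 differences, cocoa minus control, with 95% intervals from limma, for the 9 genes (diamonds) and for the probe sets of genes with more than 1 (circles). The interval of NFKB1, −0.74 to −0.43, lies below the interval of each other gene, the nearest of which is TNFAIP3 with −0.40 to −0.020, though the difference between genes was not tested.

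By the calls, the probe sets gave the same picture as the genes, though within NFKB2, REL and NFKBIA the probe sets differed in sign. Of 20, 1 was called, that of NFKB1, a share of 5% beside 7.98% of all probe sets. A total of 13 had a negative difference and 7 a positive one. In 5 of the 20 the cocoa arrays lay wholly below the controls (25%, against 27.6% of all probe sets without overlap in either direction), 2 of them for NFKBIB and 1 each for NFKB1, NFKB2 and TNFAIP3. The gap for TNFAIP3 (202644_s_at) was narrow, with −0.0017 in cocoa array 2 against 0.0017 in control array 2, and the gene itself overlapped.

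**Figure D3:**
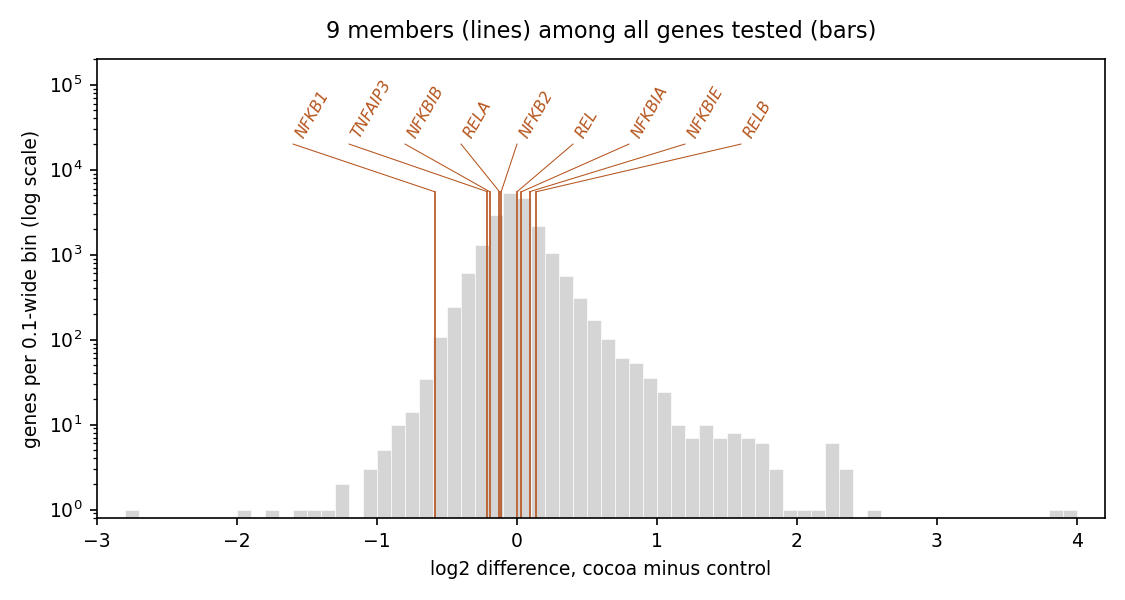
Bars count all 19775 genes by their log2 difference, cocoa minus control, in bins of 0.1 on a log scale, and lines mark the 9 members. The line of NFKB1 at −0.59 lies in the lower tail. Those of the other 8 run from −0.21 (TNFAIP3, with 10.8% of all genes as low or lower) to 0.14 (RELB, with 82.3%).

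The promoters of these genes are shown because most of the members are known targets of their own pathway, and the letters that NF-kappaB dimers prefer can be read in promoters. In the RefSeq promoter table (GRCh38.p14), 8 of the 10 genes had entries, 13 start sites in all, and RELB and NFKBIE had none. The 250 bases upstream of each start were searched on both strands for the kappaB letters GGGA, any base, then TTTCC. Each match also matches the degenerate kappaB consensus, so that both searches overlap. A match was found in 6 of the 8 genes (NFKB1, NFKB2, REL, NFKBIA, NFKBIB and TNFAIP3), in 6 of their 13 windows, and none in RELA or BCL3. Over all entries, 0.527% of 35116 windows and 0.645% of 27305 genes held it. The degenerate consensus was in 5.21% of all windows and in 7 of the 13 windows of members. Each site is given 5′ to 3′ on the gene's strand with the match in capitals and 10 bases on each side:
NFKB1, chr4:102501300-102501329, plus strand: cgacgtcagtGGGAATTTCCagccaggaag
NFKB2, chr10:102395674-102395703, plus strand: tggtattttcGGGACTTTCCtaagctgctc
REL, chr2:60881518-60881547, plus strand: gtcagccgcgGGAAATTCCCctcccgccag
NFKBIA, chr14:35404811-35404840, minus strand: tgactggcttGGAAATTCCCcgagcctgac
NFKBIB, chr19:38899931-38899960, plus strand: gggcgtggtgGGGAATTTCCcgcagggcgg
TNFAIP3, chr6:137867182-137867211, plus strand: acgtgactttGGAAAGTCCCgtggaaatcc

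The matches began between 81 bases (NFKBIA) and 21 bases (NFKB2) upstream of the start. NFKB1 and NFKBIB hold the same 10 letters, GGGAATTTCC, and REL and NFKBIA hold them on the other strand. These 4 genes had log2 differences of −0.59, −0.19, 0.00054 and 0.032, so that the same letters stood before the gene that fell and before genes that did not pass. The whole 250 bases before the NFKB1 start with the match, chr4:102501109-102501358 on the plus strand, are given as the promoter of the changed gene, with the match in capitals:
NFKB1: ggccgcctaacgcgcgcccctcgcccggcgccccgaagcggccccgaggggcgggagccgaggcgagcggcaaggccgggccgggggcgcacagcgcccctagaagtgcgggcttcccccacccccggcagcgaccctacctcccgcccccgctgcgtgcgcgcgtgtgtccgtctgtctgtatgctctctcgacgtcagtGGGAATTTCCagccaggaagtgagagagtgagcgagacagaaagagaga

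The match in NFKB1 spans bases 49 to 40 before the start. A match is a reading of letters only, with no measurement of binding in these data.

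Genes whose pattern over the 6 arrays was most like that of NFKB1 were ADSL, an enzyme of purine synthesis (Pearson r 0.997), AK6, an adenylate kinase (0.996), and PUM3, a Pumilio-like RNA-binding protein (0.995). These values describe 6 arrays that fall into 2 groups, and 329 of the other 19774 genes had an r above 0.95. ADSL fell by 0.38 on the log2 scale (SE 0.062, limma adjusted p = 0.0045) and PUM3 by 0.32 (SE 0.063, limma adjusted p = 0.0112). AK6, with a difference of −0.16 (SE 0.059), did not pass (limma adjusted p = 0.123).

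Around the members, 116 genes of 5 lists described the rest of the pathway, and 106 of them were measured. Of these, 13 rose, 9 fell and 84 did not pass (20.8% called, against 13.5% of all genes), with a median log2 difference of −0.023. The lists were chosen with earlier results of these data known, so that their shares called, here and below, are descriptions only. Most decreases lost their call under some other settings. With the 18S covariate 9 genes were higher and 1 lower, with the 5′ minus 3′ covariate 9 were higher and 2 lower, and without control array 2 the counts were 9 and 1. Without the probe sets whose suffix (_s_at or _x_at) marks probes that may match other transcripts, which left 81 genes, 10 were higher and 2 lower. CXCL8, MYC and TAP1 had no probe set left there, and so were not tested. Fewer were also lower with a replicate block (3) and with arrays centred on their median (8). The same held without cocoa array 2 (3), cocoa array 3 (4), control array 1 (3) or control array 3 (6). In some settings the decreases stayed as many or more, with 9 lower with quantile normalisation, 11 without cocoa array 1 and 13 with array weights.

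Of 12 genes of the IκB kinase complex and of kinases that activate it, 1 rose and 11 did not pass (8.33% called, median −0.068). None of CHUK, IKBKB and IKBKG, the parts of the kinase itself, passed. MAP3K8, a kinase that binds the NFKB1 precursor, read 0.23, 0.10 and 0.30 in the cocoa arrays, against −0.28, −0.17 and −0.15 in the controls, with a difference of 0.41 (SE 0.075, limma adjusted p = 0.00726). Its 2 probe sets read 0.79 (205027_s_at, adjusted p over probe sets 0.00357) and 0.039 (235421_at), so that the increase rests on the first.

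Of 22 measured receptors and adaptors, 2 rose, 2 fell and 18 did not pass (18.2% called, median −0.039). TRAF1, an adaptor of TNF receptors, rose by 0.35 (SE 0.094), and IL1R1, the interleukin-1 receptor, rose by 0.31 (SE 0.083). MALT1, a protease and scaffold of antigen receptor signalling, fell by 0.30 (SE 0.070), and RIPK2, a kinase below the NOD receptors, fell by 0.24 (SE 0.065). These 4 calls were near the threshold (limma adjusted p 0.021 to 0.0412), and 0 to 2 of the 6 fits without 1 array kept each. TRAF1, MALT1 and RIPK2 lost their call with either covariate, and IL1R1 with the 5′ minus 3′ covariate. In TRAF1 probe set 205599_at differed by 0.56 and 235116_at by 0.13. In MALT1 208309_s_at and 210018_x_at differed by −0.40 and −0.38, while 210017_at differed by −0.12 and did not pass. In RIPK2 the decrease rests on 209545_s_at (−0.53), while 209544_at differed by 0.053. In IL1R1 it is 202948_at that differed (0.67), and 215561_s_at did not (−0.046).

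Of 17 measured inhibitors and brakes outside the members, 3 rose, 1 fell and 13 did not pass (23.5% called, median 0.022). TAX1BP1, an adaptor that brings TNFAIP3 to its substrates, read 0.16, 0.40 and 0.32 in the cocoa arrays, against −0.18, −0.21 and −0.20 in the controls. It rose by 0.49 (SE 0.076, limma adjusted p = 0.00337), and all 3 of its probe sets passed. COMMD1, which promotes degradation of RELA, rose by 0.38 (SE 0.072, limma adjusted p = 0.00828), and both genes kept their call in each of the fits without 1 array and with both covariates. RNF11, a partner of TNFAIP3, rose by 0.34 (SE 0.081) and OTULIN, which removes linear ubiquitin chains, fell by 0.31 (SE 0.069), and each kept its call in 2 of the 6 fits without 1 array and with neither covariate. Among all probe sets, neither 208924_at of RNF11 (limma adjusted p = 0.0584) nor any probe set of OTULIN passed (limma adjusted p 0.056 to 0.133).

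Of 40 measured transcripts known to be induced through NF-kappaB, 7 rose, 4 fell and 29 did not pass (27.5% called, median 0.013). LCN2, an iron-sequestering defence protein, had the largest difference, with 1.05, 1.17 and 0.80 in the cocoa arrays, against −0.80, −0.89 and −1.15 in the controls. It rose 3.88-fold (log2 difference 1.96, SE 0.12, limma adjusted p = 2.42e-05). TNFSF10, a death ligand, rose by 1.74 (SE 0.10), and PSMB9, a subunit of the immunoproteasome, rose by 1.56 (SE 0.14). The chemokine CXCL10 rose by 0.67 (SE 0.12), the peptide transporter TAP1 by 0.59 (SE 0.11, limma adjusted p = 0.0548 with the 18S covariate) and the transcription factor IRF1 by 0.52 (SE 0.079). TNFSF10, PSMB9, CXCL10, TAP1 and IRF1 are also known to be induced by interferons. The seventh, the prostaglandin synthase PTGS2, rose by 0.28 (SE 0.069) and is named here after its value was seen. Neither of its probe sets passed among all probe sets (limma adjusted p 0.0702 and 0.116), and this gene was not followed under other settings.

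The 4 transcripts of that list that fell were CXCL8, CXCL2, MYC and BCL2L1. CXCL8, a neutrophil chemokine and a common readout of the pathway in epithelium, read −0.14, −0.13 and −0.21 in the cocoa arrays, against 0.20, 0.33 and 0.48 in the controls. Its difference was −0.49 (SE 0.081, limma adjusted p = 0.00448), and it kept its call in each of the fits without 1 array. Its probe sets read −0.69 (211506_s_at) and −0.30 (202859_x_at), the first of which passed. CXCL2, a related chemokine, fell by 0.28 (SE 0.067), the transcription factor MYC by 0.32 (SE 0.086) and the survival gene BCL2L1 by 0.27 (SE 0.071), with a limma adjusted p of 0.0231, 0.0376 and 0.0371, and each kept its call in 1 or 2 of the 6 fits without 1 array and with neither covariate. The decrease of CXCL2 rests on 209774_x_at (−0.69), while its other probe sets differed by −0.0030 and −0.16. In BCL2L1 206665_s_at and 215037_s_at differed by −0.48 and −0.49, and the others by −0.024 and −0.070. No probe set of BCL2L1 passed among all probe sets (lowest limma adjusted p 0.054), nor did 202431_s_at of MYC (0.080). Without the suffixed probe sets neither CXCL2 nor BCL2L1 passed, with differences of −0.084 (limma adjusted p = 0.538) and −0.047 (limma adjusted p = 0.788). Transcripts such as TNF, IL6, CXCL1, CCL20, ICAM1 and SOD2 did not pass.

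**Figure D4:**
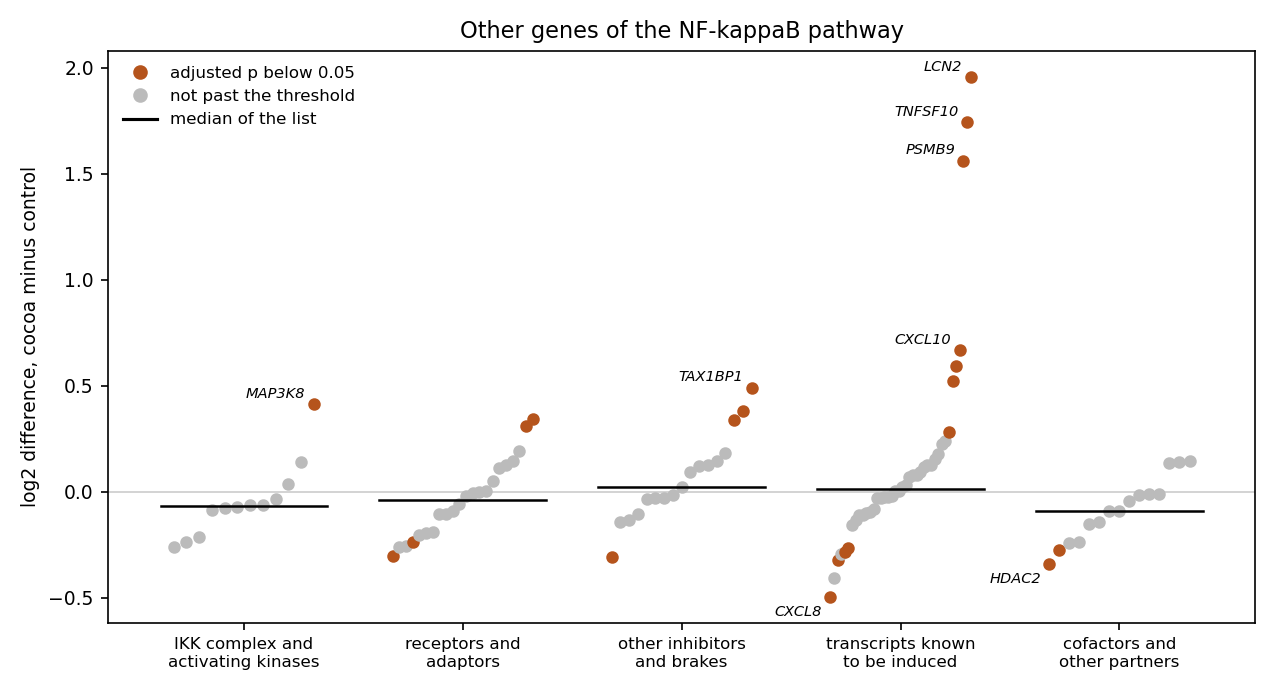
Log2 differences, cocoa minus control, of the 106 measured genes of 5 pathway lists, ordered by size within each list, with genes past the threshold in brown and a bar at the median of each list. LCN2, TNFSF10 and PSMB9 stand at 1.96, 1.74 and 1.56 among the transcripts known to be induced, while each median lies near 0, between −0.091 and 0.022.

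Of 15 measured cofactors and other partners, including the ubiquitin ligase that removes IκB, 2 fell and 13 did not pass (13.3% called, median −0.091). HDAC2, a histone deacetylase, fell by 0.34 (SE 0.068, limma adjusted p = 0.011), and CUL1, the scaffold of that ligase, fell by 0.27 (SE 0.075, limma adjusted p = 0.0421). HDAC2 kept its call in 5 and CUL1 in 1 of the 6 fits without 1 array. Neither passed with the 18S covariate (limma adjusted p = 0.0826 for HDAC2 and 0.238 for CUL1) or with the 5′ minus 3′ covariate (0.0597 and 0.178).

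Markers of other cell types gave no level here, since the table is centred. Of 3 measured leukocyte markers 1 rose (CD14, 0.75, SE 0.11), and none of 5 fibroblast or 4 endothelial markers passed. The list mean of the leukocyte markers was 0.0049 to 0.23 in the cocoa arrays and −0.30 to −0.092 in the controls. CD14 has the largest part in that mean, since PTPRC and CD3E differed by 0.010 and 0.081 and did not pass. The mean of the fibroblast markers was −0.026 to 0.026 in the cocoa arrays and −0.0023 to 0.072 in the controls, and that of the endothelial markers −0.036 to 0.025 in the cocoa arrays and −0.064 to 0.16 in the controls. Of 9 markers of colon epithelium 1 rose (CDH17, 0.56, SE 0.12), a share of 11.1% beside 13.5% of all genes. A positive difference was seen in 8 of them, and in 9184 of all 19775 genes. Their list mean was 0.0043 to 0.11 in the cocoa arrays and −0.062 to −0.029 in the controls, without overlap. Among single genes 32.5% had no overlap. CDH17 has the largest part in that mean, followed by KRT20 (0.23), which did not pass, while LGALS4 went the other way (−0.083). The part of any of these markers in the results above was not tested.

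**Figure D5:**
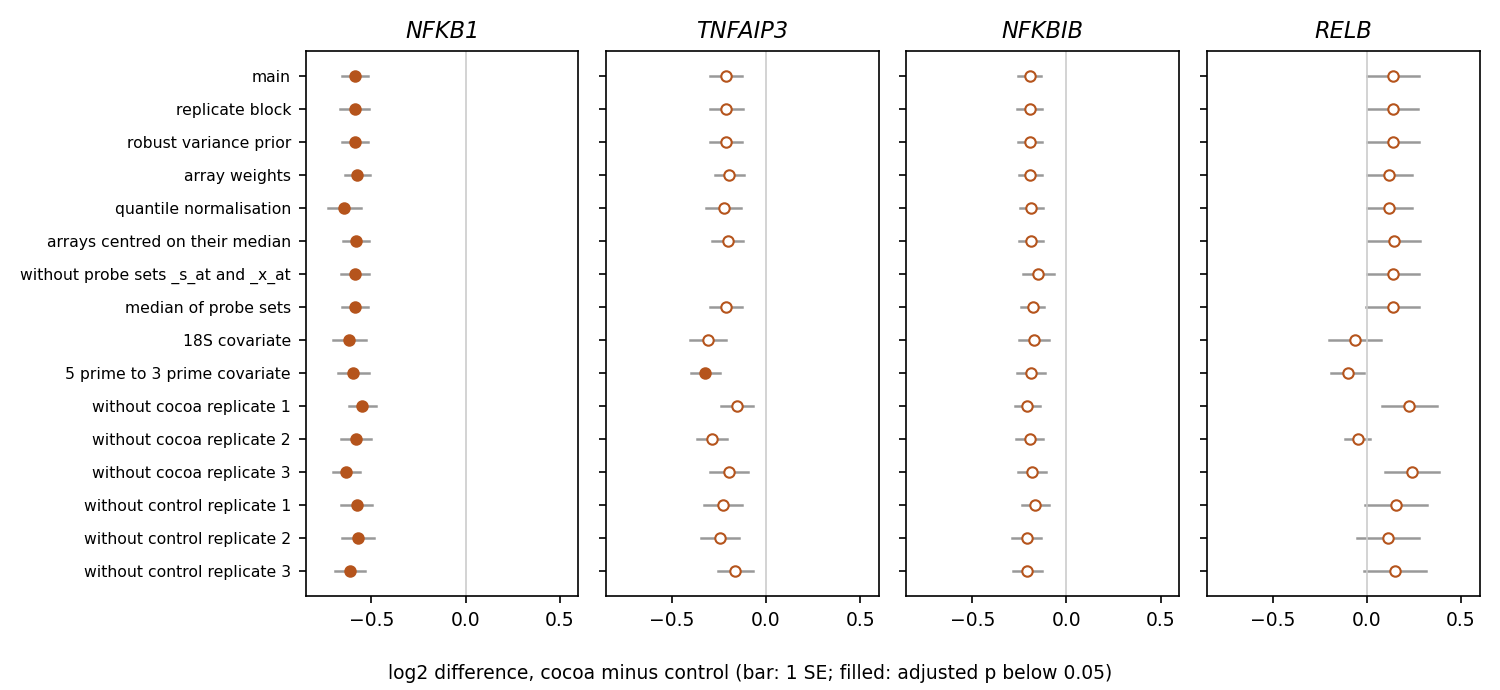
Log2 differences, cocoa minus control, with bars of 1 SE, of NFKB1, TNFAIP3, NFKBIB and RELB in the fit reported above (top) and under 15 other settings (14 for TNFAIP3, which has no probe set without a suffix), filled where the adjusted p was under 0.05. NFKB1 is filled in each and stays between −0.64 and −0.55, TNFAIP3 is filled in 1, and RELB changes sign without cocoa array 2 and with either covariate.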

How the data were processed

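RNA of 6 HT29 cultures was read on Affymetrix U133 Plus 2.0 arrays. The authors deposited log2 values from RMA, as per the submitters' processing notes; GeneSpring GX is named in the series text, and no version or filter was found in these sources. Medians of probe sets are 0, and base 2 is inferred from RMA. Of 54675 probe sets, 62 Affymetrix controls were left out of the tests. The platform annotation gave 1 symbol to 41091 probe sets, several to 1801 and none to 11721. Cocoa minus control was fitted with lmFit and eBayes of limma 3.58.1 in R 4.3.3, over genes and over probe sets, and tested on simulated data. The number of arrays limits the precision. Named were all members, up to 6 called genes per pathway list and direction, and the 3 genes most like the leading member. Members and lists were chosen with earlier results of these data known. Other settings tried were a replicate block, a robust prior, array weights, quantile normalisation, median centring, removal of _s_at and _x_at probe sets, the median of probe sets, 18S and 5′ minus 3′ covariates, a 1.5-fold minimum, and leaving out each array. Any pair of arrays differed with an SD of at least 0.175, so that none were copies. Dim probe sets could not be filtered, since centred values carry no level.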

Additional observations from a re-analysis of the deposited data

Results flagged for a closer look

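The control probe sets for 18S ribosomal RNA were not tested themselves and entered only the fits with the 18S covariate. On the centred log2 scale they were above every control array in cocoa array 2 (3.31) and cocoa array 3 (1.40). The highest control array read 0.51, and cocoa array 1 read −0.51. RELB was high in cocoa array 2 alone (0.52). NFKB1 was lowest in cocoa array 1 (−0.39), the cocoa array with the lowest 18S signal.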

How the results depend on the processing

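NFKB1 kept its direction and its call under all 15 alternatives (−0.64 to −0.55, adjusted p 0.000606 to 0.008), and it was the single member called in each of them except with the 5′ minus 3′ covariate, where 2 members were called. Without 1 array, 1315 to 2881 genes, 1 to 2 member probe sets and 10 to 24 pathway genes were called, the lowest counts being those without control array 2. The member probe sets numbered 2 without cocoa array 3. Pathway genes called were 12 without cocoa array 2, 14 without cocoa array 3 and 13 without control array 1, and genes called were 1623 without control array 1. Called genes numbered 1103 with the 18S covariate, 1411 with the 5′ minus 3′ covariate and 446 at 1.5-fold or more. Pathway genes called numbered 10 with the 18S covariate, 11 with the 5′ minus 3′ covariate and 12 without probe sets of the suffixes _s_at and _x_at, where 81 were left. The cause of these changes was not tested, except that the last fit tests fewer genes.

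Same-numbered arrays of both groups did not deviate together (correlations −0.12, −0.0089 and −0.0031). With the replicate block 1947 genes, 15 pathway genes (12 higher and 3 lower) and 1 member were called, and NFKB1 had an adjusted p of 0.008. These few correlations cannot show whether same-numbered arrays shared a day or a batch, which the labels do not state.

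Some of the members that did not pass changed sign under other settings. REL was −0.0053 with array weights, −0.012 with the median of probe sets and −0.068 to 0.053 without 1 array. RELB was −0.063 with the 18S covariate, −0.10 with the 5′ minus 3′ covariate and −0.0496 to 0.24 without 1 array. NFKBIA was −0.047 with the 18S covariate, −0.038 with the 5′ minus 3′ covariate, −0.061 without the suffixed probe sets and −0.027 to 0.072 without 1 array. Outside the members, RIPK2, which was called in the reported fit (−0.24), was 0.053 without the suffixed probe sets. With the 18S and the 5′ minus 3′ covariates, probe set 211524_at was −0.041 and −0.033, 206036_s_at 0.13 and 0.093, 239486_at 0.13 and 0.12, and 205205_at −0.063 and −0.10, while 235242_at was −0.0054 with the 18S covariate. Without 1 array, 211524_at ran from −0.0029 to 0.099, 206035_at from −0.051 to 0.071, 206036_s_at from −0.16 to 0.039, 239486_at from −0.37 to 0.019, 201783_s_at from −0.083 to 0.058, 205205_at from −0.0496 to 0.24 and 231699_at from −0.15 to 0.040. In 30 named genes, 347 of 445 values under alternatives had the direction and side of the threshold of the reported one, 84 lost the call, 1 gained it and 13 changed sign.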
